A study of Homo sapiens with 4 samples.

Results

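CXCL9, CXCL10, CXCL11 and CCL5 encode 4 secreted chemokines, small proteins that draw leukocytes along a gradient. They were chosen by gene name from the 58735 genes counted in HCC1954 cells, and their higher level in the shZDHHC15 samples was known when they were chosen, so their difference between the groups is given as a description with no test. HCC1954 is an established line of human breast cancer cells. The RNA was sequenced from 2 samples that carried a scrambled hairpin (shCON 1 and 2) and from 2 with a hairpin directed at ZDHHC15 (shZDHHC15 1 and 2), both cloned in a lentiviral vector. ZDHHC15 is a palmitoyltransferase, an enzyme that attaches the fatty acid palmitate to proteins. Cells were taken 36 h after transfection according to the treatment label, while the wording for the shZDHHC15 samples calls the knockdown stable. The labels do not say whether shZDHHC15 1 and 2 carried the same hairpin or came from separate cultures, so every spread and adjusted p given here measures the difference between these samples, which may be technical.

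ZDHHC15 had 17617 and 15716 counts in shCON 1 and 2, and 0 counts in both shZDHHC15 samples. Its level of 949 ± 24.5 CPM (counts scaled to a common normalized library size, n = 2, ± SD) in shCON was at least 6045-fold above the limit that a count of 0 allows in shZDHHC15, which is 3 counts in a sample, or 0.161 and 0.153 CPM. A hairpin commonly leaves some of its target transcript, so 0 counts in both samples is lower than such a knockdown usually reaches, and the reason was not tested. Total counts lay between 17560982 and 19118704 a sample. The filter on low counts kept 15817 genes, and all 4 chemokine genes passed it, CXCL9 only through its shZDHHC15 samples. Any tested gene with under 10 counts in both shCON samples likewise passed only through shZDHHC15.

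CXCL9, CXCL10 and CXCL11 are the ligands of the receptor CXCR3, which is carried by activated T cells and natural killer cells. Their transcription is induced by interferons through STAT and IRF factors, and NF-kappaB acts with these at the CXCL10 and CCL5 promoters. CXCL9 is the most dependent on interferon-gamma, while CXCL10 and CXCL11 also respond to type I and type III interferons and to sensors of viral RNA. CCL5, also called RANTES, binds CCR1 and CCR3 among other receptors and is made by T cells, platelets and many virus-infected or inflamed epithelial cells. Tumour cells that release these ligands can draw T cells into a tumour.

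The 3 CXCR3 ligand genes lie side by side on the minus strand of chromosome 4 (build hg38), CXCL9 (ENSG00000138755) at chr4:76001275-76007488, CXCL10 (ENSG00000169245) at chr4:76021117-76023497 and CXCL11 (ENSG00000169248) at chr4:76033682-76041415. The whole block spans 40141 bases, and the start of CXCL10 is 16009 bases from that of CXCL9 and 17918 bases from that of CXCL11. CCL5 (ENSG00000271503) is on the minus strand of chromosome 17, at chr17:35871491-35880793. The promoters of the 3 neighbouring genes are shown because the genes moved together and because interferon-induced factors are known to act at them. RefSeq sequences on GRCh38.p14 run from 250 bases before to 50 bases after the RefSeq start site, on the minus strand, 5′ to 3′. The windows are chr4:76007460-76007759 for CXCL9, chr4:76023448-76023747 for CXCL10 and chr4:76036021-76036320 for CXCL11. Capitals mark the matches to 5 motifs searched on both strands.
CXCL9: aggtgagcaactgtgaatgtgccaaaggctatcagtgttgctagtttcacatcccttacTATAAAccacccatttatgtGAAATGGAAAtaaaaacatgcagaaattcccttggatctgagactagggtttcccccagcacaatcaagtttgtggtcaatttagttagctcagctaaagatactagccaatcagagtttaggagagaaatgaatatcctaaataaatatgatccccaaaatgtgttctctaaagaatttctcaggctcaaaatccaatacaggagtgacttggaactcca
CXCL10: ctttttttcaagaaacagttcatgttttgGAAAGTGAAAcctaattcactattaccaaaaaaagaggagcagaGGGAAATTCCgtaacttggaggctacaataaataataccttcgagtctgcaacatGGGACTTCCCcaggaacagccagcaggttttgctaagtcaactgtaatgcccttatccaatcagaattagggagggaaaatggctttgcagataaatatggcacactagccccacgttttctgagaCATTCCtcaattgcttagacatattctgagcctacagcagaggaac
CXCL11: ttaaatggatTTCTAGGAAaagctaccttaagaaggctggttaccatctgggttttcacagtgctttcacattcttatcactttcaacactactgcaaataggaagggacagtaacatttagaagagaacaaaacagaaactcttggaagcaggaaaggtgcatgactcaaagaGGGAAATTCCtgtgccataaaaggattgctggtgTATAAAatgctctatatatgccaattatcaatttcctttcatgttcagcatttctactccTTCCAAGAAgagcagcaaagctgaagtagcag

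The motifs were the core of the interferon-stimulated response element (GAAA, any 2 bases, then GAAA), the gamma-activated site (TTCNNNGAA), the NF-kappaB consensus, the TEAD motif CATTCC and the TATA box TATAAA. CXCL9 held the response element core at -171 to -162 from the start site and a TATAAA at -191 to -186. CXCL10 held the response element core at -221 to -212, NF-kappaB matches at -177 to -168 and -122 to -113, and a TEAD motif at 5 to 10 bases past the start site. CXCL11 held gamma-activated sites at -240 to -232 and at 19 to 27 past the start, an NF-kappaB match at -76 to -67 and a TATAAA at -42 to -37. No matches overlapped. Among 27305 RefSeq promoters of the same length, 3.65% held the response element core, 7.88% the gamma-activated site, 5.72% the NF-kappaB consensus, 14% the TEAD motif and 12% TATAAA. The response element core was thus the rarest of the 5 motifs over all promoters and was present in CXCL9 and CXCL10, while the gamma-activated site was matched in CXCL11 alone of the 3. The RefSeq start of CXCL11 lies 5345 bases inside the gene as the count table bounds it, and that of CXCL9 lies 21 bases upstream of the counted gene. A match is a description of letters and not of a bound factor. CCL5 had no promoter entry in the table used.

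In ZDHHC15-depleted HCC1954 cells all 4 chemokine transcripts were higher than in control cells. CXCL10 went from a low level to one of the more abundant protein-coding transcripts. CXCL11 and CCL5 rose to levels below that of CXCL10, and CXCL9 went from none or a few counts to a level that was still low. In all 4 genes both shZDHHC15 samples lay above both shCON samples, which was so for 37.2% of the 15817 genes tested, and nothing is read from this count because the genes were chosen for this difference. In a bulk sample, more cells that make a transcript and more transcript per cell cannot be told apart.

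CXCL10 had 69 and 57 counts in shCON 1 and 2, and 8305 and 5378 counts in shZDHHC15 1 and 2. In normalized counts these were 3.78 and 3.38 CPM against 446 and 274 CPM, with means of 3.58 ± 0.287 and 360 ± 122 CPM (SD, n = 2). The fitted log2 fold change was 6.65 (SE 0.23), the eighth largest of the 15817 genes tested. The groups were far apart, since the lower shZDHHC15 sample was still 72.4-fold above the higher shCON sample.

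CXCL11 had 42 and 38 counts in shCON and 1683 and 1229 counts in shZDHHC15, or 2.30 and 2.25 CPM against 90.4 and 62.6 CPM. Its mean level went from 2.28 ± 0.0361 to 76.5 ± 19.6 CPM, with a log2 fold change of 5.06 (SE 0.21). CXCL11 binds CXCR3 more tightly than the other ligands do, and it was the least abundant per base of exon of the 3 members with a measurable level in shCON.

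CCL5 had 182 and 175 counts in shCON and 1351 and 1210 counts in shZDHHC15, or 9.98 and 10.4 CPM against 72.6 and 61.6 CPM. The means were 10.2 ± 0.277 and 67.1 ± 7.72 CPM, and the log2 fold change was 2.72 (SE 0.13). It was the only one of the 4 with more than 100 counts in each control sample, and its fold change was the smallest of the 3 that could be fitted without reaching the limit of detection. Of its 50-base stretches, 15.2% also occur in other genes, against 0% for each of CXCL9, CXCL10 and CXCL11, and whether reads from such stretches were counted is not given in the sources used here.

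CXCL9 had 0 and 2 counts in shCON and 16 and 19 counts in shZDHHC15. The shCON samples were at or under 3 counts, so the change is given as the ratio of the summed normalized counts, which was 16.1 with an exact 95% interval of 4.13 to 138. The fitted log2 fold change was 3.85, and it was 2.85 without shCON 1 and 7.11 without shCON 2. The interval covers counting error only, as do all counting intervals and limits given here. The shZDHHC15 samples had 0.859 and 0.968 CPM, against limits of 0.161 and 0.153 CPM for a count of 0 in those samples. CXCL9 was thus detected in both shZDHHC15 samples and not above that limit in either shCON sample.

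**Figure D1:**
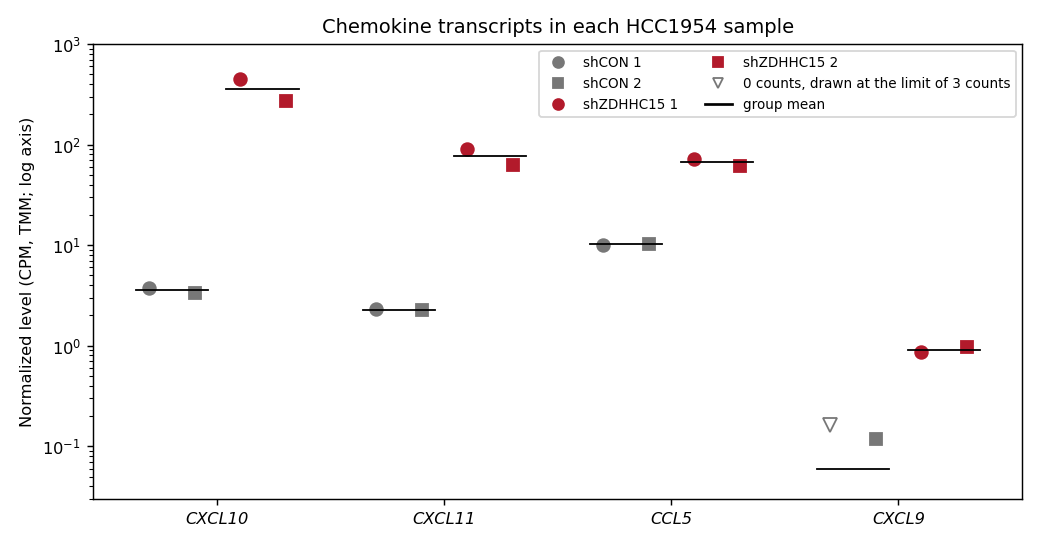
Level of each chemokine gene in each of the 4 samples, in CPM on a log axis, with a bar at the mean of the 2 samples of a group; the open triangle for CXCL9 in shCON 1 stands at the limit of 3 counts because its count was 0. CXCL10 reached 446 and 274 CPM in shZDHHC15, while CCL5 and CXCL11 lay between 61.6 and 90.4 CPM and CXCL9 under 1 CPM.

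To compare the genes with each other, counts were also divided by gene length (RPKM, the CPM per kilobase of exon). In shCON, CCL5 was the highest at 6.73 ± 0.183 RPKM, followed by CXCL10 at 3.05 ± 0.244 RPKM and CXCL11 at 1.19 ± 0.0189 RPKM, and the samples of these 3 genes did not overlap. In shZDHHC15, CXCL10 was the highest at 306 ± 103 RPKM. CCL5 at 44.4 ± 5.10 and CXCL11 at 40.1 ± 10.3 RPKM then overlapped, with 48.0 and 40.8 RPKM for CCL5 against 47.4 and 32.8 RPKM for CXCL11 in samples 1 and 2. CXCL9 was the lowest in both groups, with 0 and 0.0433 RPKM in shCON and 0.314 and 0.353 RPKM in shZDHHC15. The order of the genes therefore changed, from CCL5 first in both shCON samples to CXCL10 first in both shZDHHC15 samples.

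The makeup of the chemokine pool shifted with this order. CXCL10 made up 29.2% and 26.2% of the summed RPKM of the 4 genes in shCON 1 and 2, and 79.9% and 75.9% in shZDHHC15 1 and 2. CCL5 went the other way, from 59.9% and 62.6% to 10.1% and 13.3%, while CXCL11 stayed between 9.97% and 10.9% in all 4 samples. The RPKM of CXCL10 relative to CCL5 was 0.487 and 0.419 in shCON and 7.90 and 5.71 in shZDHHC15. Among 19951 protein-coding genes ranked by RPKM, CXCL10 moved from places 7662 and 7849 in shCON to places 66 and 123 in shZDHHC15. CCL5 moved from 5570 and 5376 to 915 and 1115, and CXCL11 from 9866 and 9819 to 930 and 1378.

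The shZDHHC15 samples differed from each other in CXCL10 more than in any other of the 4 genes. CXCL10 was 1.63-fold higher in shZDHHC15 1 than in shZDHHC15 2 (exact 95% counting interval 1.57 to 1.69), a difference of 172 CPM. CXCL11 was 1.44-fold higher in shZDHHC15 1 (1.34 to 1.56) and CCL5 1.18-fold higher (1.09 to 1.27). These 3 intervals lie above 1 and do not overlap each other, so the 3 genes differed by unequal factors beyond counting error. CXCL9 was not separable from equality, with a ratio of 0.888 and an interval of 0.427 to 1.82. CXCL10 alone accounted for 81.7% of the difference of the 4 genes' summed CPM, which was 610 in shZDHHC15 1 and 399 in shZDHHC15 2.

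Between the shCON samples no such difference was detectable at this depth. The ratio of shCON 1 to shCON 2 was 1.12 for CXCL10 (0.777 to 1.62), 1.02 for CXCL11 (0.644 to 1.63) and 0.962 for CCL5 (0.778 to 1.19). The control intervals of CXCL11 and CCL5 hold the ratio that the same gene had between the shZDHHC15 samples, and that of CXCL10 ends just below it.

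The difference was large against the rest of the transcriptome. Of 9414 genes tested with a mean of at least 10 CPM in shZDHHC15, the median log2 ratio of sample 1 to sample 2 was 0.01, and the 5th and 95th percentiles were -0.25 and 0.29. The log2 ratio of CXCL10 was 0.70, a value that 0.127% of these genes reached, and that of CXCL11 was 0.53, reached by 0.542%. CCL5, at 0.24, was below the 95th percentile, with 8.30% of genes at or above it. The 12 genes at or above the CXCL10 value were CXCL10 itself, RN7SL2, SMN1, CASP14, PECAM1, PIGR, VAV3, SIK1, ATP7A, CLEC7A, GBP4 and CP, from a log2 ratio of 1.41 for RN7SL2 down to 0.71 for CP. They include another interferon-inducible gene, GBP4 at 0.74, a guanylate-binding protein. SMN1 has a near-identical copy and its counts are uncertain.

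Genes that were high in shZDHHC15 mostly had the larger value in sample 1. A log2 fold change limit of 2.5, set after the values of the 4 genes had been seen, was reached by 233 genes (1.47% of those tested), and 95 of these had at least 10 CPM. Of the 95, 92 (96.8%) were higher in shZDHHC15 1, with a median log2 ratio of 0.31, against 53.3% of all genes at that level. These 95 genes include CXCL10, CXCL11 and CCL5 themselves. Among the 95, 6 had a log2 ratio at or above that of CXCL10, 21 at or above that of CXCL11 and 71 at or above that of CCL5, each count with the named gene in it. The fold change and the ratio both use shZDHHC15 1, so these counts are a description.

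Interferon-stimulated genes, transcripts known to be induced by type I interferon, were set beside the 4 chemokine genes for this difference. Of 38 listed, 37 were tested, and 36 were higher in shZDHHC15 by edgeR's quasi-likelihood test at a Benjamini-Hochberg adjusted p under 0.05. Their median log2 fold change was 3.08, where 21.7% of all genes tested were called higher and the median over all genes was 0.02. Between the shZDHHC15 samples 36 of the 37 had the larger value in sample 1, with a median log2 ratio of 0.26 and a range of -0.07 to 0.59. None reached the ratio of CXCL10, 2 reached that of CXCL11 and 24 that of CCL5. Their summed CPM was 1.21-fold higher in sample 1, against 1.53-fold for the 4 chemokine genes. The largest rises of this list were in XAF1, a pro-apoptotic factor (log2 fold change 5.74, SE 0.23, adjusted p = 1.03e-10), IFI44L (5.56, SE 0.13, adjusted p = 5.38e-13), OAS2, an enzyme that activates RNase L (5.38, SE 0.15, adjusted p = 3.68e-12), and TRIM22, a ubiquitin ligase (5.09, SE 0.15, adjusted p = 7.77e-12). The log2 fold change of CXCL10 was above all of these, and that of CXCL11 was just below that of TRIM22. MX1, a dynamin-like antiviral protein, was the one tested gene not called, at 1.52 ± 0.204 CPM in shCON and 2.59 ± 0.0883 CPM in shZDHHC15 (adjusted p = 0.0564).

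The remaining chemokine family did not move as one. Of 42 other chemokine genes, 15 were tested, of which 8 rose, 3 fell and 4 were not called (median log2 fold change 1.01), where 21.7% of all genes tested were called higher, and 18 had 3 or fewer counts in all samples, 15 of them 0. CCL8 and CCL3 passed the filter only through shZDHHC15, where they were high, so a fall could hardly be called for them. With at least 10 counts in every sample 6 genes were called higher. CCL8, a ligand shared in part with CCL5 receptors, had 0 and 2 counts in shCON and 98 and 69 in shZDHHC15, a ratio of summed normalized counts of 76.6 (exact 95% interval 20.9 to 638; adjusted p = 2.15e-06). CCL3, another CCR1 ligand, had 2 and 3 against 31 and 55 counts (ratio 15.8, 6.51 to 49.8; adjusted p = 9.52e-05), and reads from its near-identical copy cannot be told apart from its own. CXCL17, a mucosal chemokine, rose from 6.65 ± 0.244 to 58.1 ± 10.2 CPM (log2 fold change 3.13, SE 0.16, adjusted p = 1.16e-09). CXCL5, a neutrophil attractant, rose from 1.34 ± 0.114 to 5.21 ± 0.915 CPM (log2 fold change 1.96, SE 0.29, adjusted p = 8.43e-05).

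The 3 that fell were CXCL8, CXCL2 and CCL26, where 20.3% of all genes tested were called lower. CXCL8, or interleukin 8, had 45131 and 40671 counts in shCON and 27614 and 38243 in shZDHHC15, a log2 fold change of -0.51 (SE 0.11, adjusted p = 0.00178). CXCL2, another neutrophil attractant, changed by -0.37 (SE 0.13, adjusted p = 0.0351) and CCL26, an eosinophil attractant, by -0.74 (SE 0.25, adjusted p = 0.0293). These 3 calls rest on shZDHHC15 1, since without it 0 of the 15 genes were called lower. CXCL8 and CXCL2 thus differed between the shZDHHC15 samples opposite to CXCL10, with log2 ratios of -0.39 and -0.54. Of the 15 tested family members 5 had the larger value in shZDHHC15 1, with a median log2 ratio of -0.29, while CCL8 (0.58) and CXCL17 (0.36) were higher in sample 1 as CXCL10 and CXCL11 were. The larger value was in sample 1 for 53.3% of all genes at 10 CPM or more.

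The receptors described here were not detected or low in these cells. CXCR3 had 0 counts in all 4 samples, which allows up to between 0.153 and 0.178 CPM. CCR1 had 5 and 3 counts in shCON and 17 and 28 in shZDHHC15, a log2 fold change of 2.33 (SE 0.57, adjusted p = 0.0045). CCR3 had 12 and 18 against 29 and 20 counts and was not called (log2 fold change 0.58, SE 0.43, adjusted p = 0.302). Transcripts of CCR1 and CCR3 were thus detected at low counts, from 3 to 29 a sample, and those of CXCR3 were not detectable at this depth.

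Of 13 genes for receptors and for proteins that trap, trim or hold chemokines, 9 were tested, of which 6 rose, 1 fell and 2 were not called (median log2 fold change 0.58), beside 21.7% higher and 20.3% lower over all genes tested. CCR1, ACKR3 and DPP4 had under 10 counts in each shCON sample and passed the filter only through shZDHHC15, where they were high. For these genes a fall could hardly be called, so nothing is read from the count. With at least 10 counts in every sample 3 genes were called higher. DPP4, the peptidase that removes the first residues of these chemokines, had 2 and 1 counts in shCON and 25 and 30 in shZDHHC15 (ratio of summed normalized counts 16.8, exact 95% interval 5.46 to 84.1; adjusted p = 1.63e-04). CTSS, a lysosomal protease of antigen presentation, rose from 46.6 ± 1.88 to 241 ± 43.3 CPM (log2 fold change 2.37, SE 0.12, adjusted p = 1.49e-09). ACKR3, a scavenger of CXCL11, had 5 and 6 against 30 and 19 counts (log2 fold change 2.01, SE 0.53, adjusted p = 0.00739), a call that was lost without shZDHHC15 1. The lysosomal protease CTSB fell by 0.64 on the log2 scale (SE 0.088, adjusted p = 4.48e-05).

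The listed interferon ligands themselves were scarce, and IFNA1 was the only interferon-alpha gene listed. IFNG, IFNA1 and IFNK had 0 counts in every sample. IFNB1 had 1 and 0 counts in shCON and 4 and 3 in shZDHHC15, and IFNE had 9 and 5 against 13 and 11 counts (log2 fold change 0.65, SE 0.56, adjusted p = 0.378). IFNL1 had 5 and 2 against 12 and 15 counts, with a log2 fold change of 1.79 (SE 0.64, adjusted p = 0.0346) whose call was lost under 6 of 11 other settings, the omission of any one sample among them. The near-identical IFNL2 and IFNL3 had 10 or fewer counts in each sample, and their reads cannot be told apart with certainty.

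Most tested genes of the interferon signal list, which holds those ligands, rose. Of 28 genes for interferons, their receptors, kinases, factors and inhibitors, 21 were tested, of which 16 rose, 0 fell and 5 were not called, beside 21.7% higher and 20.3% lower over all genes tested. The median log2 fold change was 1.05. The 16 include IFNL1, which passed the filter only through shZDHHC15, and the 5 not called include IFNE. STAT2 (log2 fold change 1.90, SE 0.099, adjusted p = 1.65e-09) and IRF9 (1.88, SE 0.24, adjusted p = 1.94e-05) belong to the complex that binds the interferon-stimulated response element. USP18, an inhibitor of the type I receptor, had the largest rise (3.47, SE 0.14, adjusted p = 1.18e-10). IRF1, the factor that relays interferon-gamma, rose less than these, from 95.1 ± 3.13 to 134 ± 9.92 CPM (0.49, SE 0.098, adjusted p = 9.69e-04).

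Genes linked to interferon-gamma, as CXCL9 is, also rose in most cases. IRF1, IRF8 and SOCS1 are in both this list and the interferon signal list. USP18 is in both the interferon signal list and the interferon-stimulated list, so the counts of these lists are not fully separate. Of 19 listed and tested, 16 rose, 0 fell and 3 (ICAM1, CD274 and SOCS1) were not called, beside 21.7% higher over all genes tested. The median log2 fold change was 1.79. The guanylate-binding proteins GBP4 (5.57, SE 0.31, adjusted p = 2.92e-09), GBP5 (3.88, SE 0.27, adjusted p = 4.37e-08) and GBP2 (2.62, SE 0.12, adjusted p = 4.40e-10) and the tryptophan-degrading enzyme IDO1 (3.35, SE 0.18, adjusted p = 2.56e-09) led the list. GBP4 and IDO1 had log2 ratios of 0.74 and 0.60 between the shZDHHC15 samples, close to those of CXCL10 and CXCL11, while GBP2 had 0.07.

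RNA sensors were among the largest rises, and the NF-kappaB factors did not move one way. Of 29 genes for sensors, their adaptors and NF-kappaB signalling, 28 were tested, of which 14 rose, 4 fell and 10 were not called, beside 21.7% higher and 20.3% lower over all genes tested. The median log2 fold change was 0.27. The RNA sensors DHX58 (3.61, SE 0.21, adjusted p = 7.25e-09), IFIH1 (3.09, SE 0.12, adjusted p = 6.03e-11) and DDX58 (2.94, SE 0.13, adjusted p = 1.97e-10) and the Z-form nucleic acid sensor ZBP1 (3.43, SE 0.48, adjusted p = 4.87e-05) had the largest rises. TNFAIP3, an inhibitor of NF-kappaB, had 11420 and 9939 counts in shCON and 4218 and 6037 in shZDHHC15, a log2 fold change of -1.19 (SE 0.12, adjusted p = 2.23e-06). TICAM1, the adaptor of the receptor TLR3, changed by -0.72 (SE 0.11, adjusted p = 1.49e-04). RELB changed by -0.30 (SE 0.10, adjusted p = 0.0266) and RELA by -0.29 (SE 0.091, adjusted p = 0.0199), and without shZDHHC15 1 neither was called, so that 2 of the 28 were then called lower. REL, another NF-kappaB subunit, rose by 1.16 (SE 0.18, adjusted p = 1.13e-04). NFKB1 was not called, at 78.9 ± 4.45 CPM in shCON and 90.7 ± 4.97 CPM in shZDHHC15 (adjusted p = 0.122).

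The genes around the 4 loci gave the local background. Within 300 kb of the CXCL block, 8 of 12 other protein-coding genes were tested, of which 3 rose and 0 fell, beside 21.7% higher over all genes tested. ART3, which lies on the plus strand with CXCL10 and CXCL11 inside its introns, had 21 and 19 counts in shCON and 84 and 68 in shZDHHC15 (log2 fold change 1.80, SE 0.31, adjusted p = 3.50e-04). SCARB2, a lysosomal membrane protein, rose by 1.31 (SE 0.11, adjusted p = 2.22e-07) and USO1, a vesicle tethering factor, by 0.57 (SE 0.14, adjusted p = 0.00405). The exons of ART3 share 0 bases with those of CXCL10 or CXCL11, and whether counting used the strand is not given in the sources used here.

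Around CCL5, 7 of 19 other protein-coding genes were tested and 10 had 3 or fewer counts in all samples. Of the 7 tested, 4 rose and 1 fell, beside 21.7% higher and 20.3% lower over all genes tested. Besides CCL3, given above, GAS2L2 rose by 2.46 on the log2 scale (SE 0.50, adjusted p = 0.0012), TAF15, an RNA-binding protein, by 0.49 (SE 0.096, adjusted p = 8.42e-04) and AP2B1, an adaptor of clathrin coats, by 0.24 (SE 0.090, adjusted p = 0.0456). RASL10B had 14 and 11 counts in shCON and 0 in both shZDHHC15 samples, at least 4.52-fold lower against the mean limit of 3 counts a sample (adjusted p = 8.92e-04). The rises of ART3, SCARB2 and USO1 were smaller than those of CXCL10 and CXCL11. The rise of GAS2L2 overlapped that of CCL5 (2.72, SE 0.13) within its SE. The counting interval of the CCL3 ratio (6.51 to 49.8) only just held the CCL5 ratio of 6.58. Differences between these rises were not tested.

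Genes with the most similar pattern were sought by the Euclidean distance between log2 levels over the 4 samples, each gene centred on its shCON mean, among 12914 protein-coding genes. CXCL9 was not compared because shCON 1 had 0 counts. For CXCL10 the nearest were NOS2, the inducible nitric oxide synthase (distance 0.715), XAF1 (1.30), GBP4 (1.50), IFI44L (1.53) and MMP13, a collagenase (1.65). NOS2 had 1 and 1 counts in shCON and 128 and 138 in shZDHHC15, so its place rests on single counts, and it did not share the higher value of CXCL10 in shZDHHC15 1.

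For CXCL11 the nearest were GLDN (0.236, with 1 count in each shCON sample), TRIM22 (0.247), RSAD2, also called viperin (0.351), AKR1C2, a ketosteroid reductase with close paralogues (0.376), and TRANK1 (0.465). RSAD2 and TRANK1 also had a higher value in shZDHHC15 1, with log2 ratios of 0.57 for both. For CCL5 the nearest were C1R (0.0174), ALDH1A1, a retinal dehydrogenase (0.0717), C1S (0.0830), SERPINB4, whose close paralogue makes its counts uncertain (0.0891), and CLEC2D (0.0927). C1R and C1S encode the proteases of the first complement component, and C1R went from 327 and 319 counts in shCON to 2458 and 2182 in shZDHHC15. The distance between CXCL10 and CXCL11 was 2.22, and CCL5 lay 5.52 from CXCL10 and 3.30 from CXCL11, so that each of the 3 was nearer to other genes than to another member. These distances mostly follow the size of the change and are given as a description over 4 samples.

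Markers of other cells that make these chemokines were measured beside them. Of 20 leukocyte markers, 12 had 3 or fewer counts in all samples, 7 of them 0, and the defining marker PTPRC (CD45) had between 1 and 4 counts a sample. The summed level of the list was 11.3 and 13.2 CPM in shCON and 7.41 and 8.05 CPM in shZDHHC15. CSF1R alone made most of this sum, with 8.39 and 10.5 CPM in shCON and 3.65 and 5.35 CPM in shZDHHC15. Of the 3 tested CD14 was called higher and CD8A and CSF1R lower, beside 21.7% higher and 20.3% lower over all genes tested. The call of CD8A was lost under 7 of 11 other settings, the omission of shCON 1, shCON 2 or shZDHHC15 2 among them, and that of CD14 under 3 of 11, without shCON 2 or shZDHHC15 1 among them. Of 10 fibroblast and endothelial markers the sum was 62.9 and 64.3 CPM in shCON and 119 and 110 CPM in shZDHHC15. Of the 4 tested, COL1A1, PECAM1 and CDH5 rose and KDR fell, beside the same shares over all genes tested. The calls of COL1A1 and KDR were each lost under 4 of 12 other settings, for COL1A1 without shCON 1 or shZDHHC15 1 and for KDR without shCON 1 or shZDHHC15 2 among them. PECAM1, an adhesion molecule of endothelial cells, had 75 and 56 against 666 and 405 counts (log2 fold change 2.91, SE 0.26, adjusted p = 5.44e-07) and a log2 ratio of 0.79 between the shZDHHC15 samples. The part of these markers in the chemokine values was not tested. Of 8 epithelial and line markers, all tested, KRT19 rose, 6 fell and CDH1 was not called, beside 21.7% higher and 20.3% lower over all genes. Their sum was 19470 and 21002 CPM in shCON and 11739 and 11961 CPM in shZDHHC15. The keratins KRT8 (log2 fold change -1.62, SE 0.093, adjusted p = 4.86e-09), KRT18 (-1.58, SE 0.095, adjusted p = 7.74e-09) and KRT7 (-0.99, SE 0.092, adjusted p = 1.02e-06) fell the most. ERBB2, amplified in HCC1954, had between 92598 and 101910 counts in all 4 samples. It had the smallest of the 6 falls, from 5760 ± 241 to 4876 ± 225 CPM (log2 fold change -0.24, SE 0.085, adjusted p = 0.0332). That call was lost under 5 of 12 other settings, library size only among them.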

How the data were processed

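RNA of 4 HCC1954 samples was analysed, 2 shCON and 2 shZDHHC15, grouped by the sample titles. The authors deposited 1 table of raw counts per gene, not normalized. Per the submitters' processing notes, HISAT2, StringTie, SAMtools and build hg38 were used; the counting tool, annotation release and use of strand are not given in the sources used here. No column was set aside (0 of per-sample values not used). Counts were fitted in edgeR 4.0.16 (R 4.3.3, limma 3.58.1) with filterByExpr (minimum 10 counts), TMM factors between 0.962 and 1.03, glmQLFit (legacy = FALSE) and glmQLFTest. Benjamini-Hochberg adjustment ran over 15817 genes with a limit of 0.05. CPM and RPKM used the TMM library sizes and the deposited gene lengths. A permutation of 2 against 2 samples cannot go below a two-sided p of 0.333. Counting intervals are exact conditional binomial intervals. SEs were derived from fold changes and F statistics. The procedure was tested on simulated data.

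The 4 genes, the gene lists and the naming rule were chosen with earlier results of these data known. In each list the text names the 4 called genes with the largest rise and the 4 with the largest fall, with receptors, interferon ligands and key factors whatever their value, the 5 genes most like each member, and neighbours called within 300 kb, except for results that are not reported here. Other genes and the limit of 2.5 were chosen after values were seen. Within groups the samples differed beyond counting noise (chi-square per degree of freedom 8.32 and 6.79), so each was counted as 1 sample, which does not show separate cultures. The alternatives were DESeq2 1.42.0 size factors and its Wald test, library size only, upper-quartile factors, no filter, the legacy dispersion, at least 10 counts in every sample, a prior count of 2, the replicate block and leaving out each sample.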

Additional observations from a re-analysis of the deposited data

How the results depend on the processing

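Under the 11 alternatives run for their fold changes the 4 chemokine genes stayed higher in shZDHHC15. The minimum of 10 counts in every sample, which CXCL9 could not pass, and the legacy dispersion were run for counts of calls only. Leaving out each sample in turn gave log2 fold changes of 6.25 to 6.95 for CXCL10, 4.77 to 5.30 for CXCL11, 2.60 to 2.83 for CCL5 and 2.85 to 7.11 for CXCL9, the lowest of the first 3 without shZDHHC15 1 and both ends of CXCL9 on the omission of a shCON sample. With a prior count of 2 CXCL9 gave 2.62 in place of 3.85, since its shCON samples held 2 counts in all. The log2 ratios between the shZDHHC15 samples ranged over 4 scalings from 0.68 to 0.70 for CXCL10, 0.51 to 0.53 for CXCL11, 0.22 to 0.24 for CCL5 and -0.19 to -0.17 for CXCL9.

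Without a filter on low counts 2282 genes were called higher in place of 3427, and leaving out a sample gave 2525 to 3405. With at least 10 counts in every sample 3 in place of 6 receptor and handling genes were called higher, as fewer were tested. That limit also gave 6 in place of 8 of the other chemokines and 12 in place of 14 of the sensor and NF-kappaB list. It gave 15 in place of 16 for both the interferon signal and the interferon-gamma-linked list, while the interferon-stimulated list kept 36. Of the sensor and NF-kappaB list 2 in place of 4 were called lower with library size only and without the filter, and 2 to 5 on leaving out a sample. Of the other chemokines 1 in place of 3 was called lower with library size only, without the filter and by the DESeq2 Wald test, and 0 to 3 on leaving out a sample. The cause was not tested. The labels do not say whether same-numbered samples were handled together. The correlation of deviations between same-numbered samples was 0.0344, which in groups of 2 samples cannot decide this. With the replicate block 3723 genes were called higher and 3502 lower, against 3427 and 3217. Groups of 2 samples limit every spread given, and depth limits CXCL9, the interferons and the receptors, whose counts lie near 0.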
